A study of Mus musculus with 4 samples.

Results

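The 42 genes described here encode assembly factors of the respiratory chain, proteins that build complexes I to V without becoming part of them. They were chosen by name, as the rows of a count table of 17194 gene symbols that carry a listed symbol, and all 42 were found. The choice was made with earlier results of these data known. By complex they comprise 13 genes for complex I, 3 for complex II, 6 for complex III, 17 for complex IV and 3 for complex V. Polyadenylated RNA had been sequenced from primary mouse bone marrow-derived macrophages exposed for 2 days to RANKL, the cytokine that turns these precursors into osteoclasts. The siHells group (2 libraries) had received an siRNA against Hells, a chromatin remodelling ATPase, and the siControl group (2 libraries) a control siRNA. All 4 libraries share the cell type and the RANKL exposure, and the comparison asks which transcripts differ at this stage when Hells is lowered. The sources used here give neither the strain, sex and age of the mice nor the siRNA sequences. Since no label ties a library to a culture or animal of its own, each p-value reflects the scatter among these 4 libraries alone, and that scatter may be technical.

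Respiratory complexes are put together stepwise in the inner mitochondrial membrane from subunits of the nuclear and the mitochondrial genome. Assembly factors hold unfinished modules together, insert subunits into the membrane and deliver the flavin, iron-sulphur, heme and copper cofactors, and loss of single factors leaves cells with a defect of a whole complex. Osteoclasts are rich in mitochondria, and their formation from macrophages is accompanied by mitochondrial biogenesis.

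Total counts were 55642819 and 55012697 in siHells replicates 1 and 2 and 53502523 and 48873635 in siControl replicates 1 and 2. Hells itself had 823 and 785 counts in siHells and 1613 and 1501 in siControl, and Nr2f2, the nuclear receptor of the series title, had 104 and 123 counts against 13 and 38. Of the macrophage markers Csf1r, Adgre1, Cd68, Lyz2, Itgam, Fcgr1, Mertk and C1qa, 7 of 8 were higher and 1 (Cd68) lower in siHells, and their summed level was 25484 to 26280.2 CPM (counts relative to TMM-scaled library size) in siHells against 16139.5 to 16276.3 in siControl. All 8 osteoclast markers were lower, with a sum of 1372 to 1412.5 CPM in siHells against 8582 to 8648 in siControl. All 5 stromal markers were higher, at 1686 to 1719 CPM in siHells against 909.5 to 929.8 in siControl. Of 7 neutrophil markers 6 were measured, of which 4 were lower and 2 (S100a8 and Elane) not called. The 6 summed to 254.5 to 275 CPM in siHells against 308 to 318 in siControl. For comparison, 29.5% of all genes tested were called lower and 29.0% higher. The 4 endothelial markers summed to 13.2 to 14.3 CPM in siHells and 12.4 to 13.0 in siControl. Of the B cell markers 1 of 5 was measured (Cd79b, 4.32 to 4.68 CPM in siHells and 4.32 to 4.40 in siControl), of the T and NK cell markers 1 of 5 (Lck, 3 and 3 counts in siHells, 19 and 16 in siControl, called lower), and of the erythroid markers 0 of 6. The part of these cell types in the results that follow was not tested, and in RNA from a whole culture fewer cells of a type and less RNA per cell cannot be told apart.

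Most assembly factor transcripts were lower when Hells was depleted. Of the 42 genes, all of which passed the filter on low counts, 34 fell and 1 rose at an adjusted p under 0.05 (edgeR, quasi-likelihood; Benjamini-Hochberg over all 15651 genes tested). Among all genes tested, 58.5% were called, 29.5% lower and 29.0% higher. The median log2 fold change of the assembly factors, siHells over siControl, was -0.49, which is 1.41-fold lower, beside -0.0043 over all genes tested. The 42 values ran from -1.06 for Ndufaf4 to 0.19 for Surf1, and 24 of them lay in the lowest 25 percent of all genes tested. Both siHells libraries lay below both siControl libraries in 34 genes and above them in 2, where all genes tested gave 39.4% and 39.1%. Summed over the 42 genes, the level was 840.1 and 828 CPM in siHells and 1107 and 1102 CPM in siControl. The changes were mostly modest, with 12 genes at least 1.5-fold lower and 1, Ndufaf4, at least 2-fold lower. When a change of 1.5-fold rather than 0 was the null, 4 genes stayed called, Ndufaf4 (adjusted p = 7.05e-06), Cox10 (7.85e-05), Cox15 (0.000274) and Cox17 (0.0349). Among all genes tested, 7.0% were called lower and 8.06% higher in that test.

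**Figure D1:**
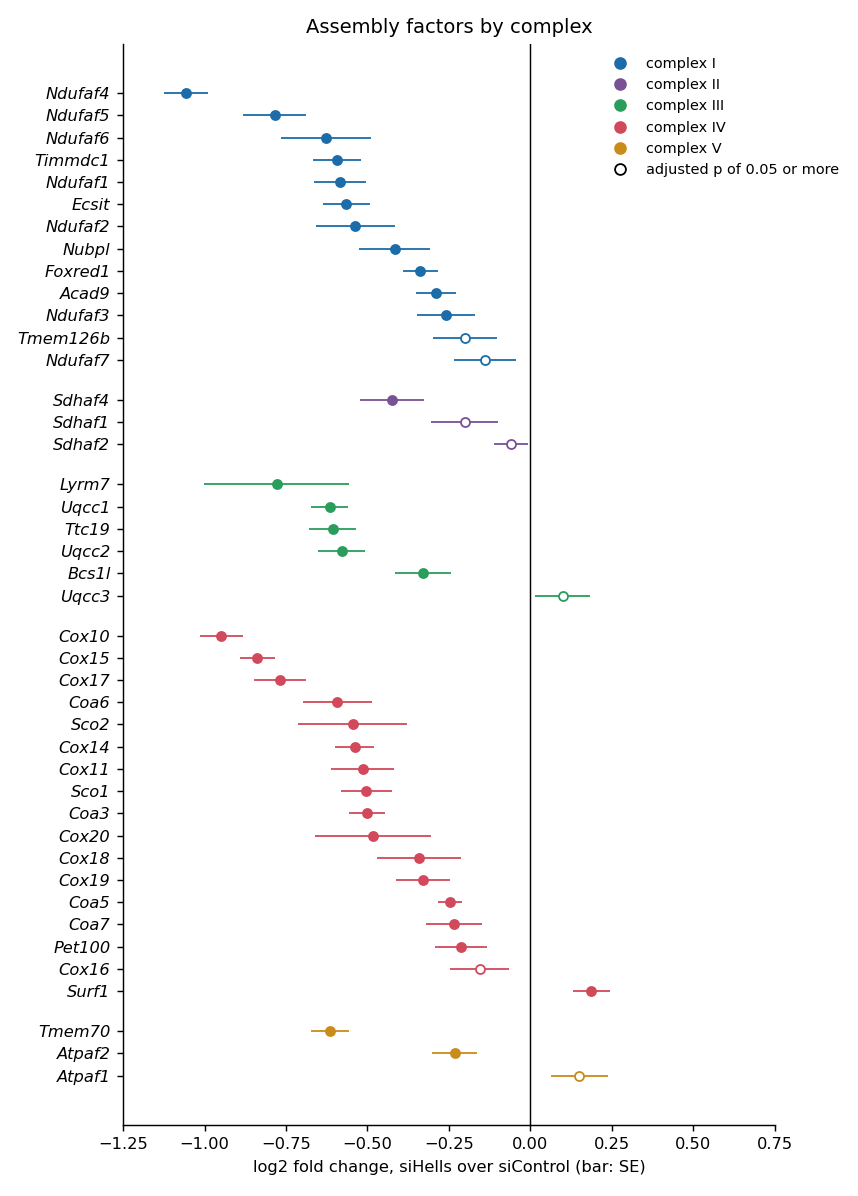
Log2 fold change of each assembly factor, siHells over siControl (x axis; bar, SE of the fit over 2 libraries a group), grouped by complex and ordered within it. Filled circles mark genes past the threshold; the only filled circle right of 0 is Surf1, and Ndufaf4, Cox10, Cox15, Ndufaf5, Lyrm7 and Cox17 lie farthest left.

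The promoters of 4 genes are shown because these stand at the ends of the range: Ndufaf4, Cox10 and Cox15, which fell most by adjusted p, and Surf1, the gene that rose. Each window runs from 250 bases before to 50 after the gene start, read 5′ to 3′ on the gene's strand from the RefSeq promoter table of GRCm38.p6. Capitals mark matches, on either strand, to the letters of known regulators of nuclear mitochondrial genes: the palindromic NRF1 motif (the first capitals of Ndufaf4) with its part GCGCATG also sought alone, AAGGTCA for ERR receptors, CCGGAAG for ETS factors such as GABPA, and the YY1 motif (the last capitals of Cox10). A match to the palindromic NRF1 motif always holds the short one, so the NRF1 searches overlap. The windows are chr4:24897833-24898132 (plus strand) for Ndufaf4, chr11:64079423-64079722 (minus) for Cox10, chr19:43752951-43753250 (minus) for Cox15 and chr2:26916481-26916780 (minus) for Surf1.
Ndufaf4: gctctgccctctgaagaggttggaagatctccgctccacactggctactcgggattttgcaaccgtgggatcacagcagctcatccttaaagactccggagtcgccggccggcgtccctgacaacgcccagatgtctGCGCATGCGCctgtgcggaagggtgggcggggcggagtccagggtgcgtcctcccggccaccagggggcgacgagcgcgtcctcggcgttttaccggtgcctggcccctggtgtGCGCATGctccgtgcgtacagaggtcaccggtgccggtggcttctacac
Cox10: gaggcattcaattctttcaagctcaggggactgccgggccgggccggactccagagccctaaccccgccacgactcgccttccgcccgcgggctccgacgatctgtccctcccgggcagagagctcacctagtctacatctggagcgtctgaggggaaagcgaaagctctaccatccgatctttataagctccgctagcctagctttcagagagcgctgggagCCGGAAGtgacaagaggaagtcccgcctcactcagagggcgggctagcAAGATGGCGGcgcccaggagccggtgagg
Cox15: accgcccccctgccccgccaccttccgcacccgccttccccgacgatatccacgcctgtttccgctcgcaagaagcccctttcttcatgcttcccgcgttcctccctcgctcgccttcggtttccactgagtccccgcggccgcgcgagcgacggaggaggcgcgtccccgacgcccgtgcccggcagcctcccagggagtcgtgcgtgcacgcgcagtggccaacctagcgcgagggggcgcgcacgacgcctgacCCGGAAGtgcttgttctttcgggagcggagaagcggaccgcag
Surf1: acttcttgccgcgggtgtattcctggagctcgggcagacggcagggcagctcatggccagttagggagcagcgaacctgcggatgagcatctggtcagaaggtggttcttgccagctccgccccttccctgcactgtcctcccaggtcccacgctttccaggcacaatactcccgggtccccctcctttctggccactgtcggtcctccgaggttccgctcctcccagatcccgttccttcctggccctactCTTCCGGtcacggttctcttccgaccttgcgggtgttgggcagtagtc
The Ndufaf4 window held a full NRF1 match and, at its start site, another copy of the short one, but no ETS match. Cox10 had an ETS and a YY1 match, and Cox15 and Surf1 had an ETS match each. Of the 42 genes, 36 had a window in the table. The ETS letters stood in 14 of the 36 (38.9%), beside 17.4% of 11223 other tested genes and 9.1% of all 27025 windows. The YY1 letters stood in 3 (8.3%, beside 2.0% and 0.9%), the palindromic NRF1 motif in 2 (5.6%, beside 2.0% and 1.0%), the short one in 4 (11.1%, beside 6.8% and 4.0%) and the ERR letters in 1 (2.8%, beside 3.2% and 4.7%). The median GC content was 61.7% in the windows of the assembly factors and 60.3% in those of the other tested genes. A match describes the letters only, and whether matches go with the direction of change was not tested.

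Complex I takes electrons from NADH, and of its 13 factors 11 fell and 0 rose, with a median log2 fold change of -0.54. The shares to set beside this count and those that follow are 29.5% lower and 29.0% higher over all genes tested. Ndufaf4, which acts with Ndufaf3 on the early module that binds ubiquinone, had 17.7 and 18.8 CPM in siHells against 36.4 and 39.7 CPM in siControl. Its groups were far apart, and it fell 2.08-fold (log2 fold change -1.06, SE 0.068, adjusted p = 2.60e-09). Its partner Ndufaf3 had 11.2 and 10.8 CPM in siHells against 13.5 and 12.7 CPM in siControl, a fall of 0.26 on the log2 scale (SE 0.089, adjusted p = 0.0204). That call was lost without siControl replicate 1 (adjusted p = 0.129), without siHells replicate 2 (0.0798), in the DESeq2 Wald test (0.0751) and with the gene length trend removed (0.0696). Ndufaf5, which hydroxylates an arginine of the subunit Ndufs7, had 8.17 and 7.72 CPM in siHells against 13.1 and 14.3 CPM in siControl and fell 1.72-fold (log2 fold change -0.78, SE 0.097, adjusted p = 4.61e-06). Ndufaf7, a protein arginine methyltransferase, had 10.6 and 11.7 CPM in siHells and 11.7 and 12.9 CPM in siControl. Those groups overlapped, and the log2 fold change of -0.14 (SE 0.095) did not pass the test (adjusted p = 0.224).

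The MCIA module holds the growing membrane arm of complex I, and 4 of its 5 genes fell. Timmdc1 had 15.4 and 14.9 CPM in siHells against 22.3 and 23.4 CPM in siControl and fell 1.51-fold (log2 fold change -0.59, SE 0.073, adjusted p = 4.52e-06). Ecsit, also known as an adaptor of innate immune signalling, had 15.1 and 15.3 CPM in siHells against 21.9 and 23.2 CPM in siControl and fell 1.48-fold (adjusted p = 7.93e-06). Ndufaf1 fell by 0.58 on the log2 scale, and Acad9, a member of the acyl-CoA dehydrogenase family, by 0.29. Tmem126b, the other membrane protein of the module, had 14.2 and 12.2 CPM in siHells and 16.3 and 14.0 CPM in siControl, so that the groups overlapped. The difference of -0.20 on the log2 scale (SE 0.099) missed the threshold (adjusted p = 0.0932), and the gene passed the test without siControl replicate 2 (adjusted p = 0.0334) or without siHells replicate 1 (0.013). Among the remaining factors, Ndufaf6 fell by 0.63 and Ndufaf2, which binds a late intermediate, by 0.54 on the log2 scale. Nubpl, which supplies iron-sulphur clusters to complex I, fell by 0.42, and Foxred1, an oxidoreductase-like factor, by 0.34.

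Complex II is succinate dehydrogenase, and 1 of its 3 factors fell while 0 rose, beside 29.5% and 29.0% of all genes tested. Sdhaf4, which binds the flavin-carrying subunit Sdha before it joins Sdhb, had 9.11 and 8.16 CPM in siHells against 11.4 and 11.8 CPM in siControl and fell 1.34-fold (log2 fold change -0.43, SE 0.098, adjusted p = 0.00163). With the gene length trend removed its log2 fold change was -0.22 and not called (adjusted p = 0.0685). Sdhaf2, needed to attach the flavin to Sdha, had 48.6 and 51.7 CPM in siHells and 53.3 and 51.1 CPM in siControl. Its groups overlapped, with a difference of -0.06 on the log2 scale (SE 0.052, adjusted p = 0.354). Sdhaf1, which helps to insert iron-sulphur clusters into Sdhb, had 12.4 and 10.5 CPM in siHells and 12.4 and 14.0 CPM in siControl, a difference of -0.20 on the log2 scale (SE 0.10, adjusted p = 0.103). Sdhaf1 passed the test without siControl replicate 1 (adjusted p = 0.0489) or without siHells replicate 1 (0.014). All 4 subunit genes of complex II fell, with a median log2 fold change of -0.83, beside -0.20 for its factors.

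For complex III, the cytochrome bc1 complex, 5 of 6 factors fell and 0 rose, with a median of -0.59. Uqcc1, which with Uqcc2 binds newly made cytochrome b, had 36.9 and 33.2 CPM in siHells against 54.0 and 53.5 CPM in siControl and fell 1.53-fold (log2 fold change -0.62, SE 0.057, adjusted p = 2.00e-07). Uqcc2 had 18.2 and 16.5 CPM in siHells against 25.4 and 26.5 CPM in siControl, a fall of 0.58 on the log2 scale (SE 0.072), and of 0.37 with the gene length trend removed. Uqcc3, which acts after them on the same intermediate, had 20.97 and 17.9 CPM in siHells and 18.4 and 17.8 CPM in siControl. The groups of Uqcc3 overlapped, and its sign rested on siHells replicate 1. The log2 fold change was 0.10 in all libraries (SE 0.084, adjusted p = 0.327), -0.018 without that library (adjusted p = 0.885) and 0.21 without siHells replicate 2 (adjusted p = 0.0389). With the gene length trend removed, Uqcc3 was called higher, at 0.31 (adjusted p = 0.0047).

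The Rieske iron-sulphur protein is the last catalytic subunit to enter complex III, and all 3 genes on its path fell. Ttc19, which helps to clear cleaved Rieske fragments, had 19.3 and 22.2 CPM in siHells against 31.1 and 32.2 CPM in siControl and fell 1.52-fold (log2 fold change -0.61, SE 0.072, adjusted p = 3.05e-06). Lyrm7, the matrix chaperone of the Rieske protein, had the lowest counts of the 42 genes, 63 and 62 in siHells against 106 and 103 in siControl, and fell by 0.78 on the log2 scale (SE 0.22, adjusted p = 0.00709). Bcs1l, the AAA protein that moves the folded Rieske protein across the membrane, fell by 0.33 (SE 0.087, adjusted p = 0.00442).

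Complex IV, cytochrome c oxidase, has the most factors, and 15 of 17 fell while 1 rose, with a median log2 fold change of -0.50. Cox10 and Cox15, which make its heme A, had the lowest log2 fold changes of the 17. Cox10, which turns heme B into heme O, had 16.5 and 16.2 CPM in siHells against 32.1 and 31.0 CPM in siControl and fell 1.93-fold (log2 fold change -0.95, SE 0.066, adjusted p = 6.99e-09). Cox15, which turns heme O into heme A, had 32.5 and 34.5 CPM in siHells against 60.9 and 58.8 CPM in siControl and fell 1.79-fold (log2 fold change -0.84, SE 0.053, adjusted p = 2.16e-09). In both genes the libraries of a group lay close together and the groups far apart. Surf1, which acts beside them when heme A enters the subunit COX1, was the only one of the 42 genes called higher. It had 39.1 and 41.6 CPM in siHells against 35.0 and 35.9 CPM in siControl, a rise of 0.19 on the log2 scale (SE 0.056, adjusted p = 0.0101). The call was lost without siControl replicate 1 or without siHells replicate 2. Library totals in place of TMM (trimmed mean of M-values) scaling also lost it (adjusted p = 0.0969). So did an adjusted p threshold of 0.01 and the test against a change of 1.5-fold, both of which keep the main log2 fold change. The sign was positive in all 16 alternatives, with a log2 fold change of 0.11 to 0.26.

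All 6 genes of copper delivery to complex IV fell. Cox17, which hands copper on within the intermembrane space, had 23.1 and 18.8 CPM in siHells against 36.1 and 35.2 CPM in siControl and fell 1.70-fold (log2 fold change -0.77, SE 0.081, adjusted p = 1.57e-06). Its siHells libraries differed from each other more than its siControl libraries, and both lay well below them. Of the proteins that receive copper from Cox17, Sco1 fell by 0.50 (SE 0.078), Cox11 by 0.51 (SE 0.097) and Sco2 by 0.55 (SE 0.17) on the log2 scale. Coa6, which works with Sco1 and Sco2 on the copper site of the subunit COX2, fell by 0.59 (SE 0.11; 0.36 with the gene length trend removed), and Cox19, a partner of Cox11, by 0.33 (SE 0.084). Sco2 had only 192 and 194 counts in siHells against 333 and 216 in siControl, and it was not called without siControl replicate 1 (log2 fold change -0.28, adjusted p = 0.237) or with the gene length trend removed (-0.40, 0.0567). Cox11 shares 48.3% of its exon bases with Tom1l1 on the opposite strand, for which the log2 fold change was -0.50 (adjusted p = 0.00521). Coa6 shares 14.1% with Tarbp1, also on the opposite strand, for which the log2 fold change was -0.32 (adjusted p = 0.00418). Sco2 shares 68.3% of its exon bases with Tymp and 66.2% with Ncaph2 in GENCODE M21, and Tymp had 3 and 22 counts in siHells and 29 and 31 in siControl. Ncaph2, on the opposite strand, had many more counts than Sco2, 5484 and 5536 in siHells against 6134 and 5714 in siControl, and was called lower (log2 fold change -0.14, adjusted p = 0.00487).

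Factors that bind newly made COX1 and COX2 fell for the most part. Coa3, which binds COX1 as it is translated, had 33.2 and 31.5 CPM in siHells against 46.1 and 45.5 CPM in siControl and fell 1.42-fold (log2 fold change -0.50, SE 0.055, adjusted p = 1.23e-06). Its partner Cox14 had 24.5 and 23.9 CPM in siHells against 35.6 and 34.6 CPM in siControl and fell 1.45-fold (log2 fold change -0.54, SE 0.060, adjusted p = 1.49e-06). With the gene length trend removed, both stayed called, with log2 fold changes of -0.30 for Coa3 and -0.31 for Cox14. On the COX2 side, Cox18, which inserts its tail, fell by 0.34 (SE 0.13, adjusted p = 0.0343) and Cox20, its chaperone, by 0.48 (SE 0.18, adjusted p = 0.0303). Cox16, the third COX2 factor, had 17.3 and 20.6 CPM in siHells and 19.8 and 22.6 CPM in siControl, with overlapping groups and a difference of -0.16 on the log2 scale (SE 0.092, adjusted p = 0.162). Cox16 passed the test without siHells replicate 2 (adjusted p = 0.00831), and it shares 56.8% of its exon bases with the gene model Gm20498, which had 260 and 59 counts in siHells and 296 and 250 in siControl. The call of Cox18 was lost without siControl replicate 2 (adjusted p = 0.246), siHells replicate 1 (0.0654) or siHells replicate 2 (0.103), and in the DESeq2 Wald test (0.111). That of Cox20 was lost without siControl replicate 1 (0.345) or siHells replicate 1 (0.077), with no filter on low counts (0.0524), in the DESeq2 Wald test (0.101) and with the gene length trend removed (0.199). In the annotation, 91.1% of the exon bases of Cox20 are covered by the abundant Hnrnpu on the opposite strand, for which the log2 fold change was -0.01 (adjusted p = 0.741).

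The remaining complex IV factors all fell, with a median log2 fold change of -0.23. Coa5 had the most counts of the 42 genes, at 144.6 and 144 CPM in siHells against 175 and 167 CPM in siControl, and fell 1.19-fold (log2 fold change -0.25, SE 0.036, adjusted p = 2.94e-05). Coa7, a heme-binding protein of the intermembrane space, fell by 0.23 (SE 0.087, adjusted p = 0.0308) and Pet100 by 0.21 (SE 0.080, adjusted p = 0.0337). Coa7 was not called when any 1 of the 4 libraries was left out (adjusted p = 0.074 to 0.125) or in the DESeq2 Wald test (0.109), although its groups did not overlap. Pet100 was not called without siControl replicate 1 (0.0731), siControl replicate 2 (0.145) or siHells replicate 2 (0.143), in the DESeq2 Wald test (0.111) or with the gene length trend removed (0.132).

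Complex V is the ATP synthase, and of its 3 factors 2 fell and 0 rose, beside 29.5% and 29.0% of all genes tested. The median was -0.23. Tmem70, which helps to bring the membrane ring of c subunits into the enzyme, had 29.3 and 30.5 CPM in siHells against 47.4 and 44.1 CPM in siControl and fell 1.53-fold (log2 fold change -0.61, SE 0.059, adjusted p = 2.58e-07). Atpaf2, the chaperone of the alpha subunit, had 20.4 and 19.0 CPM in siHells against 22.9 and 23.5 CPM in siControl and fell by 0.23 (SE 0.070, adjusted p = 0.0102). That call was lost without siControl replicate 2 (0.0687) or siHells replicate 2 (0.0712). Atpaf1, the chaperone of the beta subunit, had 14.9 and 13.9 CPM in siHells and 12.4 and 13.6 CPM in siControl. Both siHells libraries of Atpaf1 lay above both siControl libraries, but the log2 fold change of 0.15 (SE 0.087) did not pass the test (adjusted p = 0.151). The gene for its client, Atp5b, fell 1.92-fold.

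**Figure D2:**
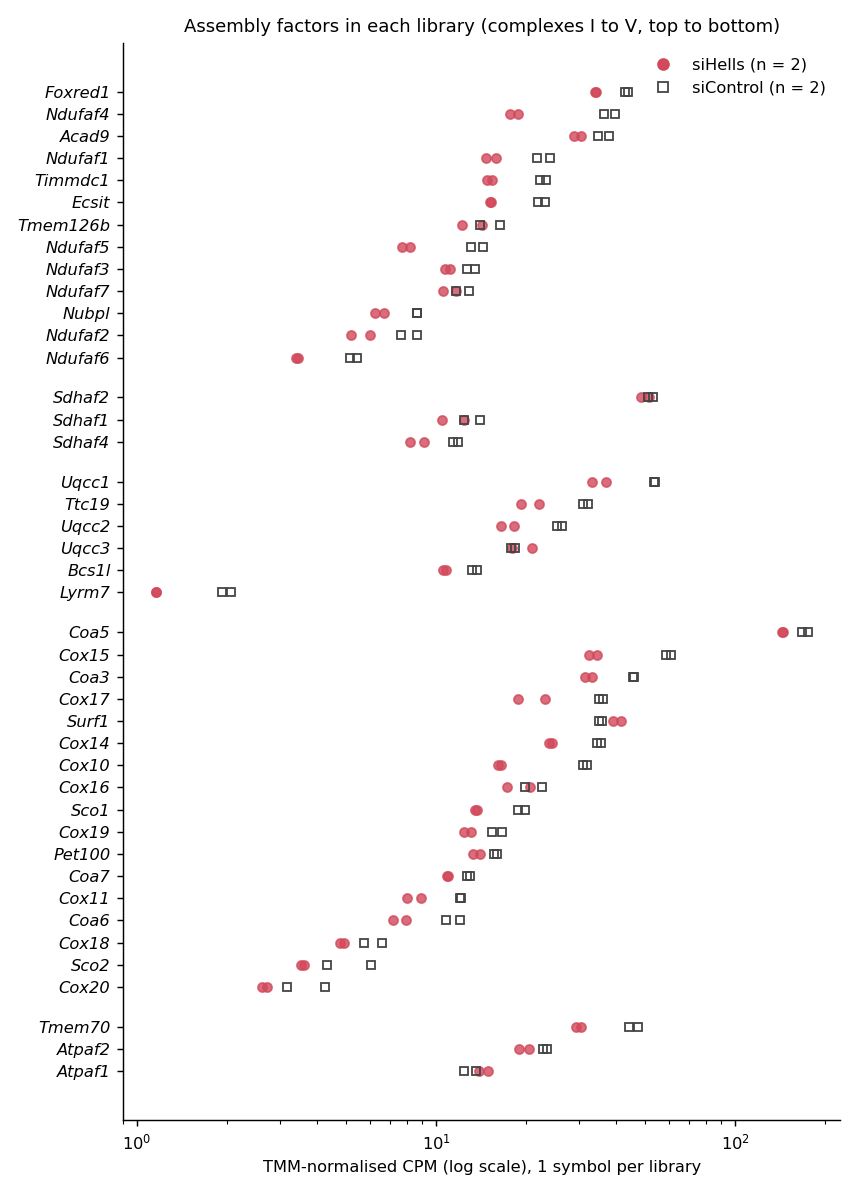
TMM-normalised CPM of each assembly factor in each library (x axis, log scale), with complexes I to V running down the page and genes ordered by siControl level within a complex. Circles are the 2 siHells libraries and squares the 2 siControl libraries; the circles lie left of the squares in 34 genes, right of them in Surf1 and Atpaf1, and overlap them in the other 6.

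Per kilobase of the longest principal transcript in GENCODE M21, Uqcc2, Coa3, Cox14, Coa5 and Surf1 had the highest RPKM, the CPM divided by length. Uqcc2 had 34.7 RPKM in siHells and 51.9 in siControl, Coa3 36.5 and 51.7, Cox14 33.4 and 48.6, Coa5 37.4 and 44.3, and Surf1 34.4 and 30.2 (means of 2 libraries, siHells first in each pair). Lyrm7 was lowest, at 0.338 RPKM in siHells and 0.581 in siControl, followed by Nubpl at 2.16 and 2.89 RPKM. These levels depend on the transcript length chosen for each gene. Another gene model overlaps 23 of the 42 genes on either strand, and 10 of them share at least 10 percent of their exon bases with another gene model (Ecsit, Ndufaf2, Sdhaf1, Sdhaf4, Cox11, Sco2, Coa6, Cox16, Cox20 and Pet100). Below that cut, Coa3 shares 9.3% with Cntd1, Cox15 9.0% with Entpd7 and Surf1 7.8% with Surf2, all on the opposite strand. The log2 fold change was -0.15 for Entpd7 (adjusted p = 0.0339) and 0.09 for Surf2 (adjusted p = 0.362). Whether the counting used strand is unknown from these sources, so reads of opposite-strand partners may not be told apart. Tymp lies on the same strand as Sco2, and Gm20498 on that of Cox16, so strand would not separate reads from those shared bases. Without those 10 genes, 26 of 32 fell and 1 rose.

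Subunit genes of the same complexes were lower too. Of 78 nuclear genes listed as subunits 77 fell and 0 rose, beside 29.5% lower and 29.0% higher over all genes tested. Their median log2 fold change was -0.71. The list counts Atpif1 (complex V, -0.78) and Cox7a2l (complex IV, -0.30), which are not subunits in the strict sense. Cyc1, with a log2 fold change of -1.08, did not pass the test (adjusted p = 0.0719). It had 93.0 and 133 CPM in siHells against 222 and 258 CPM in siControl. Its groups did not overlap, but the libraries within each group differed. By complex, the medians of factors and subunits were -0.54 and -0.61 for complex I, -0.20 and -0.83 for complex II, -0.59 and -0.91 for complex III, -0.50 and -0.70 for complex IV and -0.23 and -0.79 for complex V. All 13 subunits encoded in mitochondrial DNA fell, with a median of -0.88. Sdha, the client of Sdhaf2, fell 1.75-fold. Whether factors and subunits differed in their response was not tested.

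**Figure D3:**
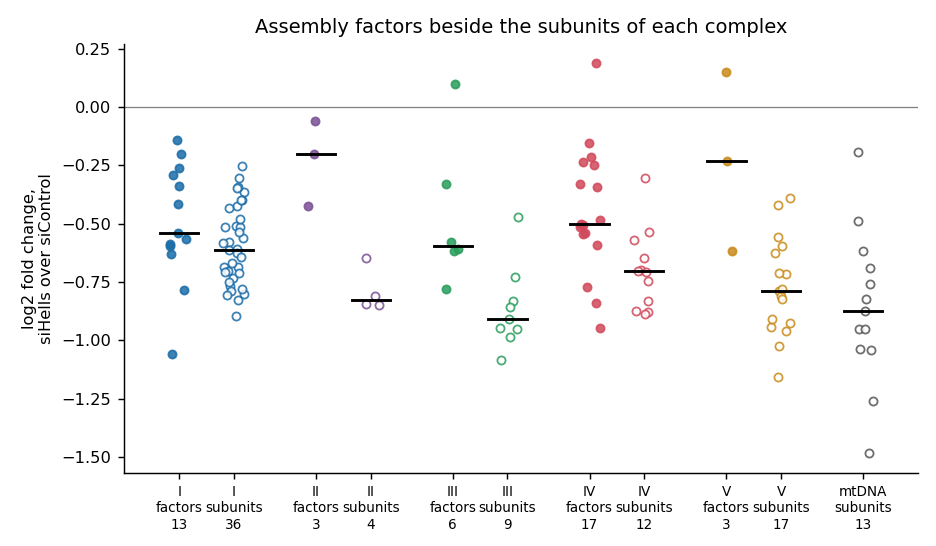
Log2 fold change, siHells over siControl (y axis), of assembly factors (filled) and subunits (open) of each complex and of the subunits encoded by mitochondrial DNA, with the number of genes under each column and a bar at its median. Every gene listed as a subunit lies below 0, and 3 factors (Uqcc3, Surf1 and Atpaf1) lie above it.

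Most genes that supply iron-sulphur clusters, heme and coenzyme Q fell. Over all genes tested, 29.5% were called lower and 29.0% higher. For iron-sulphur clusters 12 of 14 genes fell and 0 rose, with a median of -0.49; Hspa9, the mitochondrial Hsp70 chaperone, fell 1.57-fold and Nfu1, a late cluster carrier, 1.59-fold. In heme synthesis 5 of 8 fell and 1 rose (median -0.25). Alas1, its first enzyme, had 93.7 ± 1.68 CPM in siHells against 159.1 ± 0.941 CPM in siControl (SD, n = 2 each) and fell 1.70-fold. In coenzyme Q synthesis 8 of 13 fell and 1 rose (median -0.47). Coq8a, an atypical kinase of this pathway, had 48.4 ± 0.133 CPM in siHells against 272 ± 7.01 CPM in siControl and fell 5.61-fold (log2 fold change -2.49, SE 0.039, adjusted p = 1.72e-16), and the hydroxylase Coq7 fell 2.27-fold.

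Genes of copper supply to the cell and to mitochondria numbered 4, of which 2 were called lower and 1 higher, beside 29.5% and 29.0% of all genes tested. Slc31a1, the copper importer of the plasma membrane, had 328 ± 0.526 CPM in siHells against 150.1 ± 2.32 CPM in siControl (SD, n = 2 each) and rose 2.19-fold (log2 fold change 1.13, SE 0.032, adjusted p = 1.60e-13). Slc25a3, the mitochondrial carrier of phosphate and copper, fell 1.39-fold.

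A further 24 assembly and insertion factors outside the 42 had been listed, of which 19 were tested. Of these 10 fell and 0 rose, with a median of -0.24, beside 29.5% lower and 29.0% higher over all genes tested. Fmc1, an assembly factor of the ATP synthase in yeast, had 134 and 140 counts in siHells against 332 and 245 in siControl and fell 2.16-fold, and Taco1, an activator of COX1 translation, fell 1.43-fold. Among 11 regulators of nuclear mitochondrial genes 6 fell and 2 rose (median -0.24), beside the same shares of all genes tested. The coactivator Ppargc1b had 29.7 ± 1.82 CPM in siHells against 83.0 ± 3.63 CPM in siControl (SD, n = 2 each) and fell 2.79-fold, and its partner Esrra fell 1.36-fold. The genes that rose were Nrf1 and Yy1, each by a log2 fold change of 0.22, while Gabpa fell by 0.33.

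**Figure D4:**
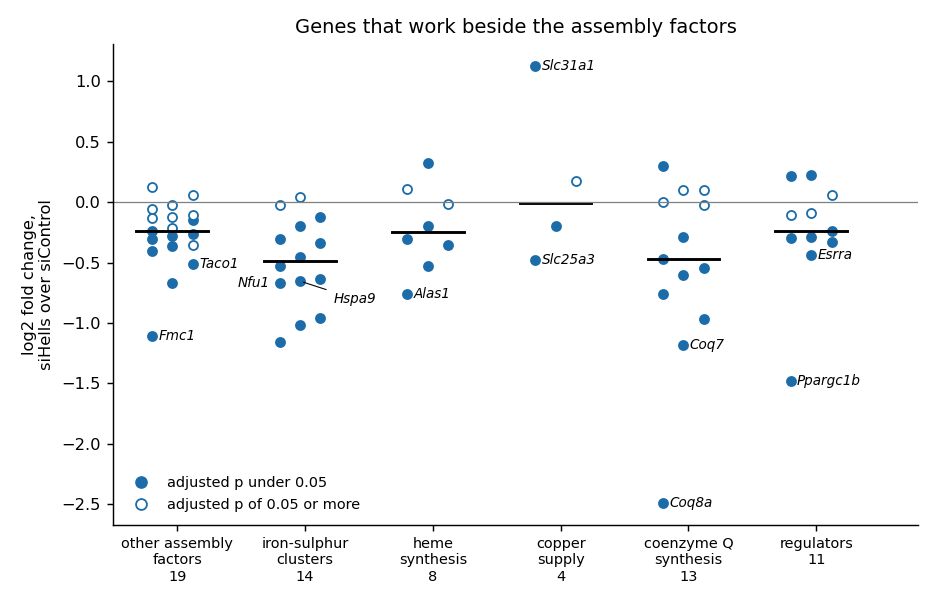
Log2 fold change, siHells over siControl (y axis), of further assembly factors, cofactor pathways and regulators, with the number of genes tested under each column, a bar at the median and labels on most of the genes named in the text. Slc31a1 stands alone above 1, and Coq8a lies lowest at -2.49.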

How the data were processed

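The authors deposited raw read counts per gene symbol, with no normalization, for the 4 libraries. Per the submitters' processing notes, the tools include HISAT2 2.1.0, StringTie 2.1.3b, Trimmomatic 0.38, FastQC and edgeR, with no roles stated, and the build is mm10. No annotation release or strand setting was given in the sources used here. A SMARTer and a TruSeq kit are both named for every sample, per the labels' protocols, so which kit made a library cannot be told. The lowest deposited count was 1, so genes with 0 reads in any library were not analysed here.

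Genes were kept by filterByExpr (minimum count 10, minimum total 15; 1543 removed, 15651 tested), libraries were scaled by TMM, and siHells was compared with siControl by the robust quasi-likelihood test of edgeR 4.0.16 in R 4.3.3, with group as the only term (2 residual degrees of freedom) and Benjamini-Hochberg adjustment over all genes tested at a threshold of 0.05. The procedure was checked on simulated counts. CPM are TMM-normalised, and intervals between libraries are given as SD or SE. Gene models are GENCODE M21 (GRCm38), and promoters are from RefSeq GRCm38.p6, taking the first window listed for a gene. Alternatives were DESeq2 1.42.0, limma 3.58.1 voom, other scalings, filters and thresholds, a replicate block, removal of gene length or GC trends (lowess span 0.3; all 42 genes had values) and each library left out. The genes and lists were chosen with earlier results of these data known. Values in every library are given for the 4 genes of complexes I and IV and the 2 of the other complexes with the smallest p, for genes called against the majority and for genes not called; of other lists, up to 2 genes with the smallest p are named. Cox17, Sco2, Coa5, Lyrm7, Ndufaf3, Uqcc2, Cyc1, Hnrnpu, Tymp, Gabpa, Nrf1 and Yy1 were given values after these had been seen. Protein sequences were not used here, and single values of some genes that the rule names are not reported here.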

Additional observations from a re-analysis of the deposited data

How the results depend on the processing

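Of the 42 assembly factors, 35 were called (34 lower, 1 higher), and the count was 35 or 34 with DESeq2 size factors, upper-quartile scaling, no filter, the filter of 1 CPM in 2 libraries, limma voom and removal of the GC trend. It was 38 (38 lower, 0 higher) with library totals, where all genes gave 5508 lower and 3773 higher rather than 4612 and 4541. It was 30 (29 lower, 1 higher) with the DESeq2 Wald test, where 25.9% of all genes were lower and 25.8% higher, 31 (29 lower, 2 higher) with the gene length trend removed, 27 at an adjusted p of 0.01, and 30 to 34 with 1 library left out. Against a change of 1.5-fold it was 4, and the count over all genes was 2357 rather than 9153; that test asks for a larger change by construction. Over all genes, leaving out 1 library gave 7795 to 8884 calls. With the length trend removed, the median log2 fold change of the 42 genes was -0.36 rather than -0.49. Uqcc3 was the second gene called higher there (0.31, adjusted p = 0.0047), and the values of Sdhaf4, Uqcc2, Coa6, Coa3, Cox14 and Cox20 shrank by over 1.5 times. With library totals the call of Surf1 was lost, and Tmem126b (0.028), Sdhaf1 (0.0315), Sdhaf2 (0.0421) and Cox16 (0.0456) were called lower. In all, 26 of the 35 called genes were called in every alternative other than the 1.5-fold test, and the sole change of sign was Uqcc3 (-0.018 without siHells replicate 1, 0.21 without siHells replicate 2). Labels give both groups the replicate numbers 1 and 2, but same-numbered libraries did not deviate together (correlation 0.04), so the numbers were not taken as pairs; with the replicate number as a block, 35 of the 42 and 9088 of all genes were called. Genes with few counts, such as Lyrm7, Cox20 and Sco2, have the widest errors.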
